A study of Homo sapiens with 18 samples.

Results

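The genes described are 10 genes of the Wnt pathway, followed through 18 RNA samples of 3 B-cell precursor acute lymphoblastic leukemia cell lines. They were LZIC, CTNNB1, AXIN1, AXIN2, APC, TCF7, TCF7L2, NKD1, CTNNBIP1 and FZD6, which are 10 of the 26941 genes in the count tables. LZIC was selected on these same counts, because it was lower with SOX11 siRNA in every cell line, and the other 9 were added for their place in the pathway. The values of LZIC in the siRNA comparisons are therefore given as a description without a test. REH, 697 and RCH-ACV are established human lines. In each line, 3 samples were nucleofected with siRNA against SOX11 and 3 with a non-specific control siRNA, both at 300 nM, and RNA was collected after 48 h. The knockdown was transient, and control cells had gone through the same nucleofection, so no untreated cells enter any comparison. The 3 samples of a group were biological replicates of 1 cell line and do not stand for different leukemias.

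Wnt signalling controls the stability of beta-catenin, the protein made from CTNNB1. Without a Wnt ligand, a destruction complex built on AXIN1, AXIN2 and APC marks beta-catenin for degradation. When a ligand binds a Frizzled receptor such as FZD6 and an LRP co-receptor, the complex is held at the membrane, and beta-catenin accumulates and joins DNA-binding factors of the TCF/LEF family, such as TCF7 and TCF7L2, at target genes. AXIN2 and NKD1 are targets that feed back on the pathway, as a scaffold of the destruction complex and as an inhibitor of Dishevelled. CTNNBIP1, also called ICAT, keeps beta-catenin from binding TCF factors, and LZIC is named for a leucine zipper and a domain like that of ICAT. In B-cell development the pathway is known for its part in the growth of early B-cell precursors, where the TCF/LEF factor LEF1 is active.

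The total count per sample lay between 7039505 and 16592565, so that 3 counts, taken as the least that shows a gene, stood for 0.181 to 0.426 CPM, the count scaled to a library of 1 common size. Such floors cover counting error only. SOX11, the target of the siRNA, was at 56.4%, 53.0% and 62.7% of the control level in REH, 697 and RCH-ACV, respectively. Its groups overlapped in no line. All 8 B-precursor markers looked up had counts, although VPREB1, part of the surrogate light chain, was near 0 in REH at 0.0317 CPM. The 6 T-cell markers summed to at most 0.580 CPM in any sample, with 3 to 5 of them without a count in a group. Of the 6 myeloid markers, MPO had 13.5 CPM in REH controls and 7.90 CPM with SOX11 siRNA. CSF3R had 7.08 and 5.96 CPM in REH, and both had a mean of at most 0.781 CPM in the other lines. CSF1R had 28.3 and 26.8 CPM in RCH-ACV and 2.90 and 4.04 CPM in 697. ITGAM, LYZ and CD14 had a mean of at most 1.07 CPM in any group. Their part in the results was not tested.

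In the control samples beta-catenin was the most abundant of the 10 mRNAs in every line. Levels of different genes were compared per length, as CPM per kb of the canonical transcript. CTNNB1 stood at 33.9 ± 1.51 CPM per kb in REH, 82.6 ± 1.31 in 697 and 76.3 ± 0.773 in RCH-ACV (SD, n = 3 each). AXIN1 and LZIC followed, and in REH these neighbours lay within their spread, at 20.6 ± 1.61 and 20.2 ± 0.262 CPM per kb. LZIC had 10.0 ± 0.774 CPM per kb in 697 and 10.9 ± 0.992 in RCH-ACV, below AXIN1 at 13.7 ± 0.643 and 13.1 ± 0.919. The place of LZIC depends on the transcript taken: with the 1405 bases of a shorter LZIC transcript in place of 4989 bases it would rank 1 in REH and 2 in both other lines. APC, TCF7L2 and CTNNBIP1 lay between 5.57 and 7.84 CPM per kb in every line. In RCH-ACV these 3 lay close to each other. In 697 TCF7L2 at 7.58 ± 0.298 was above CTNNBIP1 at 5.59 ± 0.248, with APC between them at 6.94 ± 1.40. In REH TCF7L2 at 5.57 ± 0.615 was within the spread of AXIN2 at 5.23 ± 0.573. FZD6, TCF7 and NKD1 were lowest in every line, below AXIN2, and ran from 0 for NKD1 in REH and 697 to 2.78 CPM per kb for FZD6 in REH.

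**Figure D1:**
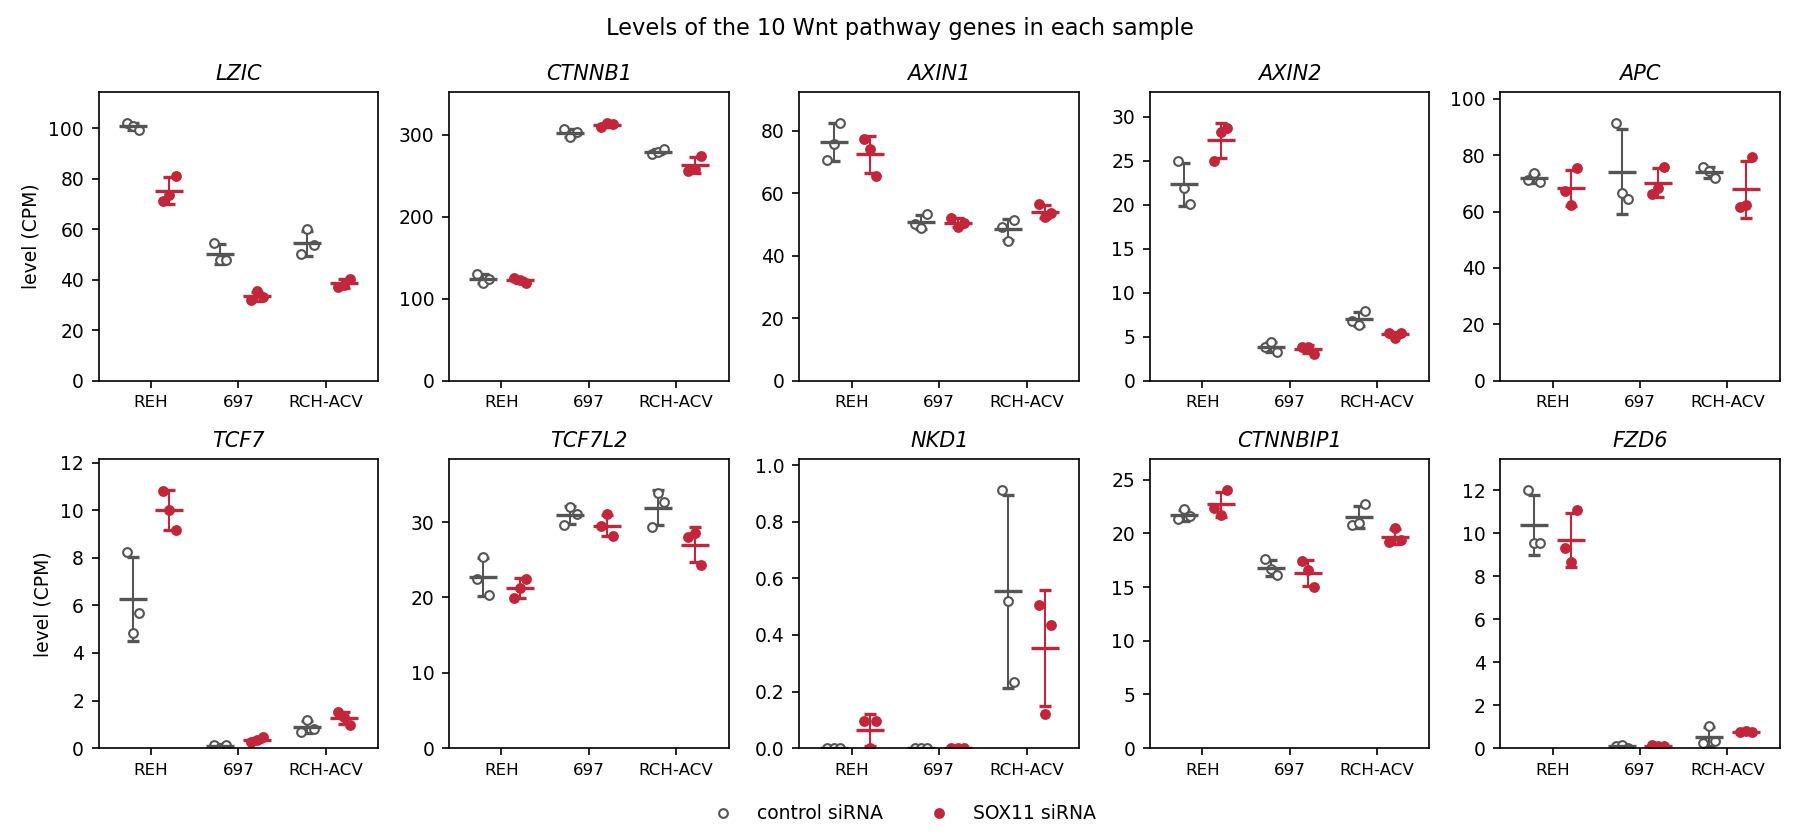
Level of each of the 10 genes in CPM (vertical axis, starting at 0, scaled per gene) in the 3 control siRNA samples (open circles) and the 3 SOX11 siRNA samples (filled circles) of each cell line, with the mean (bar) and SD (whisker). LZIC, which had been chosen for this, is lower in all 3 SOX11 siRNA samples of every line. CTNNB1 is lowest in REH, and AXIN2, TCF7 and FZD6 are highest in REH.

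The question put to the control samples was which members differ between the lines without the knockdown. LZIC had been chosen by setting these controls against the SOX11 siRNA samples of the same line, not by setting the lines against each other. The members were chosen with earlier results of these data known, so the choice is not independent of the counts. The 9 controls were fitted together, and 9 of the 10 members could be tested. Of these, 8 differed between 697 and REH, where 76.2% of all genes passed, 7 differed between RCH-ACV and REH, where 73.7% passed, and 5 differed between RCH-ACV and 697, where 64.3% passed. Shares of this size are near the background. Each is a difference between cell lines, and no line stands for a kind of leukemia.

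FZD6, a Frizzled receptor, was close to absent outside REH. Its levels in REH controls were 12, 9.53 and 9.57 CPM, against 0.123, 0.147 and 0 CPM in 697 and 0.228, 1.04 and 0.349 CPM in RCH-ACV. All REH samples were above all others. REH had 322 counts in sum, 697 had 2 and RCH-ACV had 13, which gives a ratio of REH to RCH-ACV of 20 (95% counting interval 11.5 to 38.0) and of REH to 697 of 115.9 (31.8 to 961). The difference between RCH-ACV and 697 passed the test (adjusted p = 0.0316 with edgeR's quasi-likelihood test) but not without 697 control replicate 3 (adjusted p = 0.103) or RCH-ACV control replicate 2 (adjusted p = 0.198).

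The scaffolds of the destruction complex did not follow 1 pattern. AXIN1 had 70.7, 75.9 and 82.5 CPM in REH controls, 50.1, 48.9 and 53.5 CPM in 697 and 49.3, 44.7 and 51.3 CPM in RCH-ACV. It was lower in both other lines than in REH, by a log2 fold change of -0.57 in 697 (SE 0.07, edgeR adjusted p = 9.42e-07) and -0.64 in RCH-ACV (SE 0.07, adjusted p = 2.32e-07), while 697 and RCH-ACV overlapped. AXIN2, the feedback target, had 24.9, 21.9 and 20.1 CPM in REH controls, 3.81, 4.40 and 3.24 CPM in 697 and 6.83, 6.36 and 7.91 CPM in RCH-ACV. No 2 lines overlapped, and AXIN2 was lower than in REH by -2.54 in 697 (SE 0.15, adjusted p = 1.93e-11) and -1.65 in RCH-ACV (SE 0.13, adjusted p = 1.32e-09), and higher by 0.89 in RCH-ACV than in 697 (SE 0.19, adjusted p = 0.000448). APC, the largest of the scaffold genes, had means of 71.8 ± 1.62 CPM in REH, 74.2 ± 15.0 in 697 and 74.0 ± 1.92 in RCH-ACV. Its log2 differences between lines were 0.06, 0.05 and -0.01, with approximate 95% intervals no wider than -0.19 to 0.25. The large SD in 697 came from control replicate 1 at 91.5 CPM against 66.7 and 64.6 CPM in replicates 2 and 3, and without it APC was higher in RCH-ACV than in 697 by 0.18 (SE 0.06, adjusted p = 0.0170).

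CTNNB1 ran the other way from AXIN1 and AXIN2. Its levels were 129.8, 118.8 and 123.9 CPM in REH controls, 306.4, 297.0 and 303.5 CPM in 697 and 277.0, 278.7 and 282.5 CPM in RCH-ACV. REH was lowest in every sample, and the log2 fold change was 1.29 for 697 against REH (SE 0.04, edgeR adjusted p = 7e-15) and 1.18 for RCH-ACV against REH (SE 0.04, adjusted p = 3.55e-14). RCH-ACV was lower than 697 by -0.11 (SE 0.04, adjusted p = 0.0311). That small difference did not pass without 697 control replicate 3 or any 1 of the 3 RCH-ACV controls (adjusted p from 0.0594 to 0.0926), with DESeq2 (0.0594) or with library size alone as the scale (0.284).

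The TCF factors split. TCF7L2 had 22.5, 25.3 and 20.3 CPM in REH controls, 29.6, 32.0 and 31.1 CPM in 697 and 29.4, 33.8 and 32.7 CPM in RCH-ACV. It was higher than in REH by 0.44 in 697 (SE 0.09, edgeR adjusted p = 0.000363) and by 0.49 in RCH-ACV (SE 0.09, adjusted p = 0.000105), and the other two lines overlapped. TCF7, known best from T cells, had 8.26, 4.84 and 5.69 CPM in REH controls, 0.123, 0 and 0.135 CPM in 697 and 0.683, 1.17 and 0.815 CPM in RCH-ACV. The 3 lines did not overlap. From 193, 2 and 22 summed counts, TCF7 in REH was 69.5 times its level in 697 (95% counting interval 19.0 to 577.6) and 7.08 times that in RCH-ACV (4.55 to 11.6).

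LZIC, which shares a domain with CTNNBIP1, was most abundant in REH. REH controls held 102.1, 100.7 and 99.5 CPM, 697 controls 54.5, 48.0 and 47.7 CPM and RCH-ACV controls 50.1, 59.9 and 53.6 CPM. LZIC was lower than in REH by -1.0 on the log2 scale in 697 (SE 0.07, edgeR adjusted p = 2.31e-10) and by -0.88 in RCH-ACV (SE 0.07, adjusted p = 1.32e-09). RCH-ACV and 697 overlapped (0.12, SE 0.07, adjusted p = 0.169), although the difference passed without 697 control replicate 1 (0.19, adjusted p = 0.0354) and on the scale of library size alone (0.18, adjusted p = 0.0326). CTNNBIP1 had means of 21.7 ± 0.503 CPM in REH, 16.8 ± 0.745 in 697 and 21.5 ± 1.02 in RCH-ACV. It was lower in 697 than in REH by -0.36 (SE 0.09, adjusted p = 0.00158) and higher in RCH-ACV than in 697 by 0.36 (SE 0.09, adjusted p = 0.00267). NKD1 had no count in any REH or 697 control, and 8, 4 and 2 counts in the RCH-ACV controls. The lower 95% counting limit of the ratio of RCH-ACV to REH was 4.11, and of RCH-ACV to 697 it was 2.96.

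With SOX11 siRNA, LZIC was lower than in all controls of the same line, which is how it had been chosen. REH held 71.3, 73.5 and 81.2 CPM, against controls of 102.1, 100.7 and 99.5 CPM. In 697 the samples held 31.8, 35.4 and 33.0 CPM, against 54.5, 48.0 and 47.7 CPM. In RCH-ACV they held 37.2, 38.0 and 40.4 CPM, against 50.1, 59.9 and 53.6 CPM. The groups did not overlap in any line, and the log2 fold change was -0.41 for REH (SE 0.05), -0.59 for 697 (SE 0.08) and -0.50 for RCH-ACV (SE 0.07), or 75.1%, 66.6% and 70.8% of the control level. In bulk RNA, less LZIC mRNA in each cell and fewer cells that make it cannot be told apart. Leaving out any 1 sample kept the log2 fold change between -0.37 and -0.63.

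LZIC lies on the minus strand of chromosome 1 of hg19, chr1:9982171-10003465, in 8 exons of the canonical transcript. The tables list 5 RefSeq transcripts of it, which share reads. The one described, NM_001316973, has the highest total, and 3 of the others gave log2 ratios of the mean levels within -0.42 to -0.61. NM_001316975 held fewer reads, with a mean of 29.6 CPM in REH controls against 100.8 CPM for NM_001316973, with log2 ratios of -0.18 for REH, -0.52 for 697 and -0.22 for RCH-ACV, where its groups overlapped. Because the transcripts share reads, these ratios are not independent of each other.

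The 3′ UTR of the canonical LZIC transcript is long, at 4106 bases, which is more than the whole of the 1405-base transcript, and holds 1 copy of the 7-base word GTGACGC. The site is shown because the word had been picked earlier in these data as one whose carriers were lower with SOX11 siRNA, so that its presence in LZIC is a description and no test. The word starts at base 391 of the UTR and lies at chr1:9990060-9990066 of hg19 on the minus strand. The stretch shown is chr1:9990049-9990077, with the word in capitals and read 5′ to 3′ on the strand of the mRNA.
LZIC 3′ UTR site: tggagtgaacaGTGACGCaagctcaatag
None of the other 9 members held the word on the strand of the mRNA. Of the other pathway genes scanned, KREMEN1 and APC2 held it, and over all 12280 genes scanned the share was 1.59%, LZIC included. KREMEN1 and APC2 did not pass the siRNA test in any line in which they were tested. KREMEN1, tested in REH only, had a log2 fold change of -0.54 (SE 0.20, edgeR adjusted p = 0.141). APC2 had 0.05 in REH (SE 0.19), -0.83 in 697 (SE 0.38) and 0.33 in RCH-ACV (SE 0.27). The groups overlapped in each case. Control means were low, from 1.85 to 5.37 CPM, so the test does not show that these genes were unchanged.

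The genes beside LZIC are given next. NMNAT1, an enzyme of NAD synthesis, starts head to head with LZIC on the plus strand, and only 20 bases separate the annotated genes, at chr1:10003466-10003485 of hg19. They are shown on the plus strand because they lie between the annotated genes, with the one CCAAT (searched on both strands) in capitals.
Between LZIC and NMNAT1: tccggccccctggaaCCAAT
The canonical transcripts start farther apart, at base 10003449 for LZIC and base 10003533 for NMNAT1, so the word is not within 20 bases of either of these starts. Of 27305 RefSeq genes, 1.70% hold the word in the 20 bases before their start, a window placed otherwise than the stretch shown. NMNAT1 had 13.5, 13.4 and 13.8 CPM in REH controls and 12.2, 14 and 15.3 CPM with SOX11 siRNA. It had log2 fold changes of 0.03 in REH (approximate 95% interval -0.18 to 0.24), -0.07 in 697 (-0.37 to 0.23) and -0.15 in RCH-ACV (-0.45 to 0.14), and its groups overlapped in every line. CLSTN1, a calsyntenin, and UBE4B, a ubiquitin ligase, lay between -0.01 and 0.07 in all lines. PIK3CD, the catalytic subunit of PI3 kinase delta, whose annotated end overlaps that of CLSTN1, rose in REH by 0.21 (SE 0.04, edgeR adjusted p = 0.00192) and had -0.22 in 697 (SE 0.05, adjusted p = 0.103) and -0.02 in RCH-ACV. RBP7 had too few counts to test. CTNNBIP1, a member and also a neighbour of LZIC, is given with the members.

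**Figure D2:**
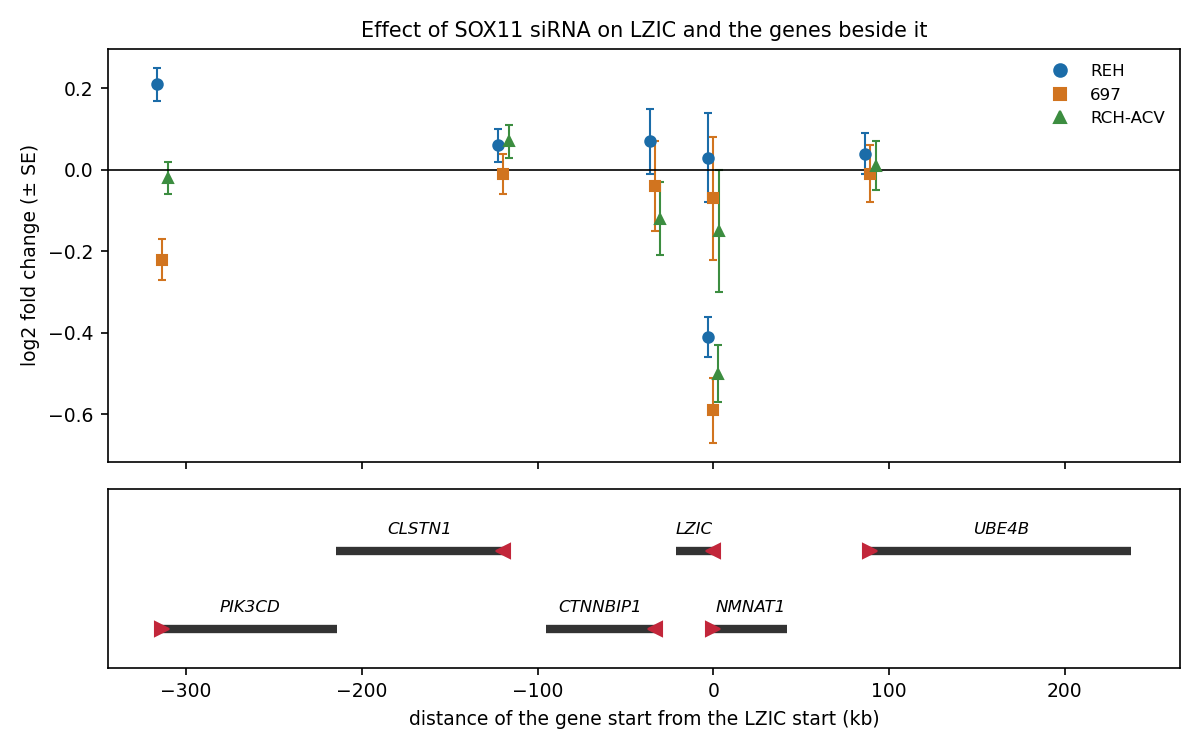
Log2 fold change with SOX11 siRNA (upper panel, vertical axis, with SE) of LZIC and its neighbours against the distance of each gene's start from the LZIC start in kb (horizontal axis), with the extent of each gene below and a red arrow at its start that points in the direction of transcription. Circles, squares and triangles stand for REH, 697 and RCH-ACV, and the 3 symbols of a gene are shifted sideways for legibility. The 3 LZIC values lie between -0.41 and -0.59, below those of every neighbour, but LZIC had been chosen for being lower in every line.

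The next question was whether the other members moved with SOX11 siRNA. In REH 8 of them were tested and 1 passed, where 4.62% of all genes passed. In 697 6 were tested and 0 passed with edgeR, where 0.559% of all genes passed, and 0 had an unadjusted p under 0.05 and 0 passed with DESeq2. In RCH-ACV 7 were tested and 0 passed with edgeR, where 7.51% of all genes passed, although 4 had an unadjusted p under 0.05, and 0 passed with DESeq2. The samples of the groups did not overlap for 2 of the 8 in REH, 1 of the 6 in 697 and 5 of the 7 in RCH-ACV, where 21.4%, 13.1% and 25.9% of all genes tested did not overlap. The median log2 fold change of these members was -0.04, -0.05 and -0.12, and that of all genes tested was within 0.01 of 0 in each line.

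**Figure D3:**
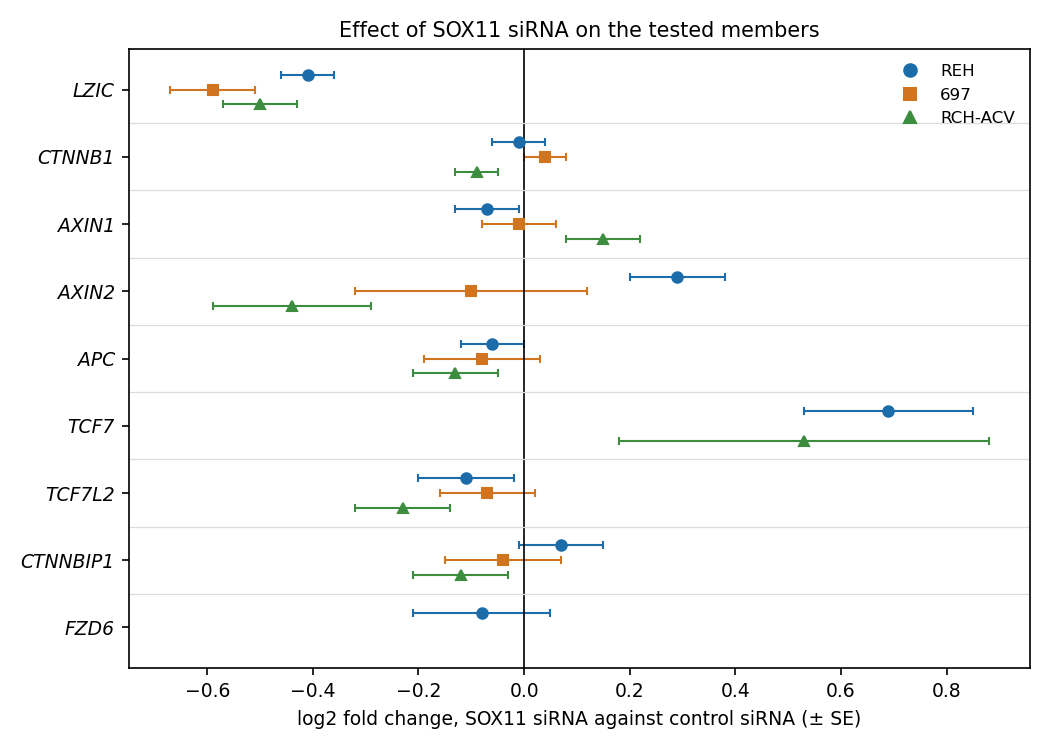
Log2 fold change of the 9 members that could be tested in at least 1 line (horizontal axis), SOX11 siRNA against control siRNA, with SE bars. Circles, squares and triangles stand for REH, 697 and RCH-ACV, and a missing symbol means too few counts in that line. LZIC, which had been chosen for being lower in every line, is below 0 by more than 0.4 in all 3 lines. CTNNB1, AXIN1 and APC stay within 0.15 of 0, and AXIN2 lies on both sides of 0.

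TCF7 was the member that rose, and it rose in REH. Samples with SOX11 siRNA held 10.8, 10.0 and 9.18 CPM, against controls of 8.26, 4.84 and 5.69 CPM. The groups did not overlap, although the lowest treated sample was close to the highest control. The log2 fold change was 0.69 (SE 0.16, edgeR adjusted p = 0.0113), and DESeq2 also called it. The call rested on single samples: it did not pass without SOX11 siRNA replicate 1 (0.62, adjusted p = 0.0865), control replicate 2 (0.49, adjusted p = 0.0998) or control replicate 3 (0.65, adjusted p = 0.0590). In RCH-ACV, TCF7 had 1.51, 1.32 and 0.982 CPM with SOX11 siRNA and 0.683, 1.17 and 0.815 CPM in controls. These overlap, with a log2 fold change of 0.53 (SE 0.35, adjusted p = 0.400). In 697 TCF7 had 9 counts in the SOX11 siRNA samples and 2 in the controls, too few to test.

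AXIN2 had the lowest p of the members for a difference between the lines. In REH it had 25.0, 28.2 and 28.7 CPM with SOX11 siRNA and 24.9, 21.9 and 20.1 CPM in controls, in RCH-ACV 5.43, 4.90 and 5.45 CPM against 6.83, 6.36 and 7.91 CPM, and in 697 3.81, 3.83 and 3.03 CPM against 3.81, 4.40 and 3.24 CPM. The SOX11 siRNA samples were above all controls in REH, below all controls in RCH-ACV and mixed with them in 697. The log2 fold change was 0.29 in REH (SE 0.09, edgeR adjusted p = 0.0648), -0.10 in 697 (SE 0.22, adjusted p = 0.972) and -0.44 in RCH-ACV (SE 0.15, adjusted p = 0.0943), so it passed in no line. In REH it did pass without control replicate 1 (0.37, adjusted p = 0.0217) and with no filter on low counts (0.29, adjusted p = 0.0276). The test of the difference between lines gave an unadjusted p of 0.00146 and an adjusted p of 0.115 with edgeR.

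CTNNB1 mRNA stayed near its control level. With SOX11 siRNA it had 125.5, 123.0 and 119.0 CPM in REH, 309.4, 313.9 and 312.7 CPM in 697 and 256.1, 258.5 and 274.5 CPM in RCH-ACV. REH gave a log2 fold change of -0.01 (approximate 95% interval -0.10 to 0.08), 697 gave 0.04 (-0.04 to 0.13) and RCH-ACV gave -0.09 (-0.17 to -0.01, edgeR adjusted p = 0.221). In RCH-ACV the 3 samples lay below all controls by a small margin, and without SOX11 siRNA replicate 3 the difference passed (-0.12, adjusted p = 0.0214).

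AXIN1 and APC, the other scaffolds, gave similar small values. The log2 fold change of AXIN1 was -0.07 (SE 0.06) in REH, -0.01 (SE 0.07) in 697 and 0.15 (SE 0.07) in RCH-ACV (edgeR adjusted p = 0.190), where 56.4, 52.3 and 53.7 CPM with SOX11 siRNA lay above 49.3, 44.7 and 51.3 CPM in controls. For APC the values in REH, 697 and RCH-ACV were -0.06, -0.08 and -0.13 (SE 0.06, 0.11 and 0.08), and its groups overlapped in all 3. In RCH-ACV, SOX11 siRNA replicates 1 and 2 had 61.8 and 62.2 CPM of APC and replicate 3 had 79.5 CPM, and without replicate 3 the difference passed (-0.25, SE 0.06, adjusted p = 0.00193). The same sample was the nearest to the controls for CTNNB1 and LZIC, and without it 2479 genes in all passed in RCH-ACV instead of 973.

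TCF7L2 in RCH-ACV had 28.0, 28.6 and 24.3 CPM after SOX11 siRNA, below controls of 29.4, 33.8 and 32.7 CPM, and its log2 fold change did not pass (-0.23, SE 0.09, edgeR adjusted p = 0.121). It was -0.11 in REH (SE 0.09) and -0.07 in 697 (SE 0.09). For CTNNBIP1, the ICAT gene, the values in REH, 697 and RCH-ACV were 0.07, -0.04 and -0.12 (SE 0.08, 0.11 and 0.09). Its RCH-ACV samples lay below the controls, at 19.2, 20.5 and 19.4 CPM against 20.8, 21.0 and 22.7 CPM. FZD6 in REH had 9.31, 8.69 and 11.1 CPM against 12, 9.53 and 9.57 CPM, a log2 fold change of -0.08 (approximate 95% interval -0.34 to 0.18). It had 3 counts with SOX11 siRNA and 2 in controls in 697, and 26 and 13 in RCH-ACV. NKD1 had 2, 0 and 10 counts with SOX11 siRNA in REH, 697 and RCH-ACV and could not be tested in any line.

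A test of whether the siRNA effect differed between lines, over all 18 samples, covered 8 members beside LZIC. None passed with edgeR, where 0.734% of all genes passed, 1 had an unadjusted p under 0.05, which was AXIN2, and 0 passed with DESeq2. TCF7 had an adjusted p of 0.874, CTNNB1 0.621 and TCF7L2 0.856.

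To set the members in the wider pathway, 124 genes beside LZIC were looked up in 9 lists by role, which include the other 9 members. In the controls, 66 of the 83 that could be tested differed between 697 and REH, 68 between RCH-ACV and REH and 55 between RCH-ACV and 697. That is 79.5%, 81.9% and 66.3% of them, beside 76.2%, 73.7% and 64.3% of all genes. Per length, LEF1 stood far above the other TCF/LEF factors in every line, at 205.9 CPM per kb in REH, 228.6 in 697 and 249.0 in RCH-ACV, where TCF7L2 had 5.57, 7.58 and 7.84 CPM per kb.

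Several ligands and receptors were near absent in 1 line or more. WNT16, a Wnt ligand, had 366.0, 331.7 and 367.7 CPM in 697 controls and 477.2, 478.7 and 480.0 CPM in RCH-ACV, against 4 counts in all 3 REH controls together. ROR1, a receptor tyrosine kinase that binds Wnt ligands, had 51.2 ± 5.90 CPM in 697, 58.3 ± 2.19 in RCH-ACV and 1 count in REH. LGR5, a receptor for R-spondins and a target gene, went the other way, at 125.3 ± 5.10 CPM in REH, 2.33 ± 0.943 in RCH-ACV and no count in 697. RNF43, which removes Frizzled receptors from the membrane and is also a target, was highest in REH too, at 52.5 ± 1.25 CPM against 8.08 ± 1.47 in 697 and 21.3 ± 1.94 in RCH-ACV. WLS, which carries Wnt ligands to the cell surface, had 23.2 ± 0.938 CPM in RCH-ACV, 1 count in 697 and none in REH.

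Of the kinases of the destruction complex, GSK3A, CSNK1A1 and CSNK1D lay between 28 and 38.9 CPM per kb in every line, whereas CSNK1E had 35.7 in REH, 66.4 in 697 and 55.2 in RCH-ACV. GSK3B, with a canonical transcript of 7743 bases, lay below these kinases per length in every line. Its control mean was highest in 697 (83.4 CPM), then REH (58.5 CPM), and lowest in RCH-ACV (37 CPM). The log2 fold change was -1.18 for RCH-ACV against 697 (SE 0.08, edgeR adjusted p = 2.81e-10). Against REH, GSK3B was higher by 0.52 for 697 (SE 0.07, adjusted p = 3.61e-06) and lower for RCH-ACV (-0.66, SE 0.08, adjusted p = 6.54e-07). DVL2 and DVL3, which pass the signal on from Frizzled, lay between 26.2 and 41.1 CPM per kb. Of the target genes, MYC, the growth-promoting transcription factor, had 62.5 CPM per kb in REH, 217.8 in 697 and 164.3 in RCH-ACV. CD44, an adhesion receptor, had 67.3 CPM per kb in RCH-ACV, 0.110 in 697 and no count in REH. TLE4, a co-repressor that occupies TCF/LEF factors without beta-catenin, had 13.2, 47.5 and 67.5 CPM per kb in REH, 697 and RCH-ACV.

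**Figure D4:**
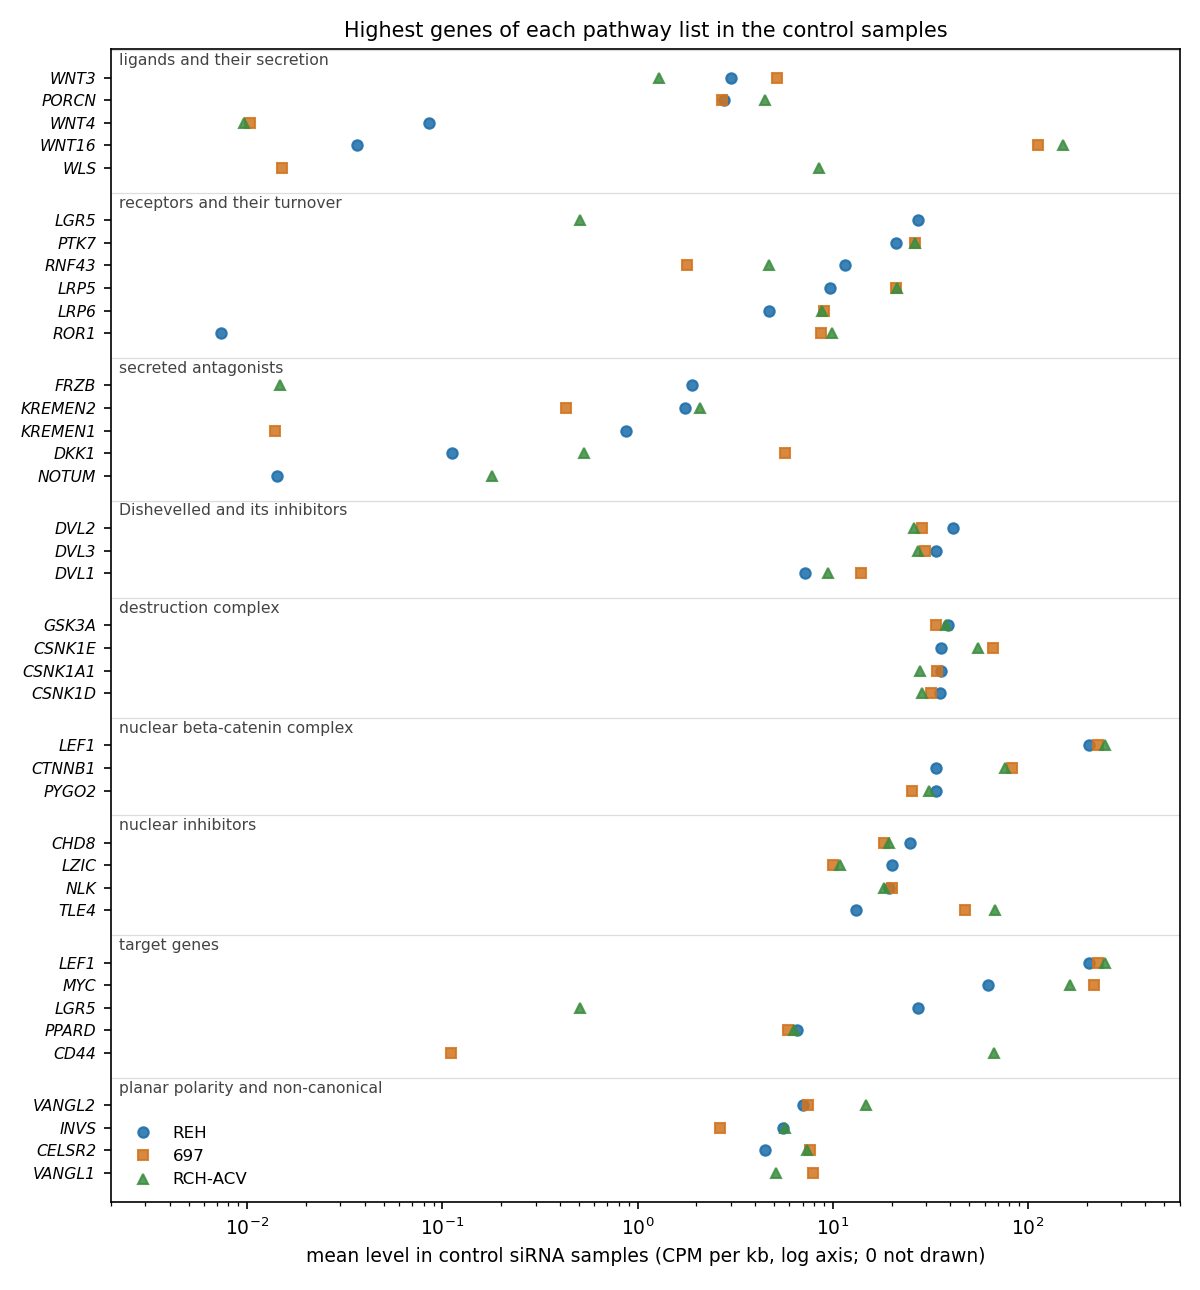
Mean level of the highest genes of each pathway list in the 3 control siRNA samples of each line, in CPM per kb on a log axis, with genes grouped by list. Circles, squares and triangles stand for REH, 697 and RCH-ACV, and a level of 0 is not drawn. LZIC is placed among the nuclear inhibitors only for its ICAT-like domain. GSK3A, CSNK1A1, CSNK1D, DVL3 and LEF1 lie close together across lines, whereas WNT16, ROR1, WLS, LGR5 and CD44 spread over orders of magnitude.

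With SOX11 siRNA, 5 of the 67 pathway genes tested in REH passed (7.46%), 0 of 64 in 697 and 8 of 75 in RCH-ACV (10.7%), beside 4.62%, 0.559% and 7.51% of all genes. In 697, 11 of the 64 had an unadjusted p under 0.05 and 0 passed with DESeq2. The median log2 fold change of the tested pathway genes was -0.01 in REH, -0.02 in 697 and -0.04 in RCH-ACV. None of the 15 destruction complex genes, all tested, passed with edgeR in any line. The test of a difference between lines covered 84 of the pathway genes, and 1 passed, which was MYC.

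In REH, 2 pathway genes rose and 3 fell. FRZB, a secreted antagonist that binds Wnt ligands, rose beside TCF7, with 7.48, 8.16 and 7.55 CPM against 4.56, 5.39 and 5.17 CPM (0.61, SE 0.15, edgeR adjusted p = 0.0151), but did not pass without SOX11 siRNA replicate 2 or control replicate 1 (adjusted p = 0.0641 and 0.0638) or with DESeq2 (0.116). EPHB3, an ephrin receptor and target gene, fell to 47.5% of its control level, with 1.63, 1.97 and 1.91 CPM against 4.37, 3.28 and 4.14 CPM (-1.07, SE 0.23, adjusted p = 0.00567). MYC fell from 222.7, 241.0 and 234.0 CPM to 193.0, 198.1 and 193.1 CPM (-0.25, SE 0.04, adjusted p = 0.000228). VANGL2, a membrane protein of planar cell polarity, fell by 0.29 on the log2 scale (SE 0.07, adjusted p = 0.0136), but did not pass without SOX11 siRNA replicate 1 or control replicate 1 (adjusted p = 0.0622 and 0.0623) or with DESeq2 (0.0840). The EPHB3 and MYC calls held whichever sample was left out.

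In RCH-ACV, 2 pathway genes rose and 6 fell. WNT16 rose from 477.2, 478.7 and 480.0 CPM to 552.5, 545.4 and 535.4 CPM (0.19, SE 0.04, edgeR adjusted p = 0.00408). TLE1, a co-repressor of TCF/LEF factors, fell from 54.7 ± 1.26 to 43.1 ± 0.754 CPM (-0.34, SE 0.06, adjusted p = 0.00279), and VANGL2 fell from 79.0 ± 0.713 to 64.4 ± 1.18 CPM (-0.30, SE 0.05, adjusted p = 0.00252). These 3 calls held whichever sample was left out.

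The other 5 RCH-ACV calls did not hold in every fit with 1 sample left out. In the fits without any 1 sample but SOX11 siRNA replicate 3, 386 to 543 genes in all passed, instead of 973. LGR6, a receptor for R-spondins, fell by 0.56 on the log2 scale (SE 0.12, edgeR adjusted p = 0.00942) and did not pass without SOX11 siRNA replicate 2 or control replicate 3. ROR1 fell by 0.44 (SE 0.10, adjusted p = 0.00965) and DACT1, an inhibitor of Dishevelled, by 0.46 (SE 0.11, adjusted p = 0.0150). Both calls were lost without SOX11 siRNA replicate 1 or 2, and also without control replicate 1 or 2 for ROR1 and without control replicate 2 or 3 for DACT1. TLE4 fell by 0.16 (SE 0.04, adjusted p = 0.0315) and CD44 rose by 0.16 (SE 0.04, adjusted p = 0.0230), and both were lost without any 1 of the samples but SOX11 siRNA replicate 3. TLE4 also did not pass with DESeq2 (-0.15, adjusted p = 0.0750). Without SOX11 siRNA replicate 3, 22 of the pathway genes passed in RCH-ACV, and 2479 genes in all passed instead of 973.

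**Figure D5:**
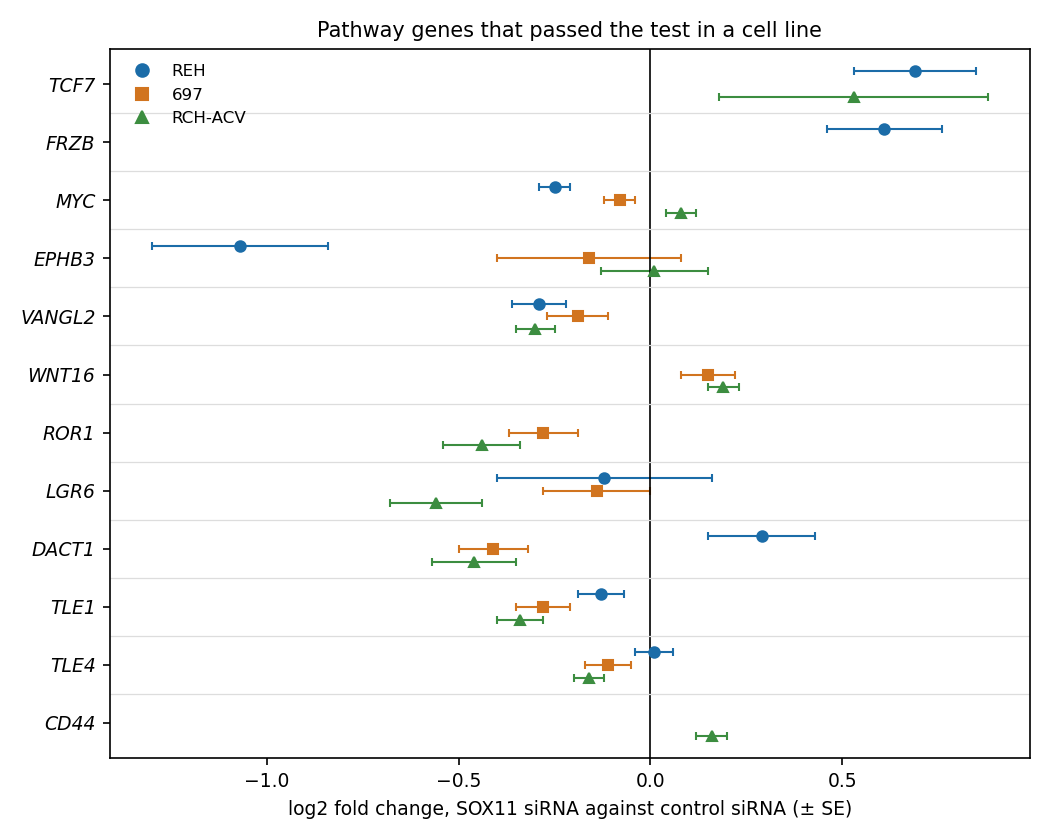
Log2 fold change of the 12 pathway genes that passed the test in REH or RCH-ACV (horizontal axis), SOX11 siRNA against control siRNA, with SE bars. Circles, squares and triangles stand for REH, 697 and RCH-ACV, and a missing symbol means too few counts in that line. VANGL2 and TLE1 lie below 0 in all 3 lines, and DACT1 lies at 0.29 in REH and at -0.41 and -0.46 in 697 and RCH-ACV.

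The genes whose levels ran closest to those of LZIC were found by Pearson's r of log2 CPM, centred within each line, over the 18 samples and among 11311 genes tested in all 3 lines. They were CGGBP1 (r = 0.979), SOX11 (0.966), HNRNPA1P10 (0.958), NAA30 (0.957) and ADAM10 (0.955). The samples of a group share the siRNA, and all 5 genes were lower with it in every line, by a log2 fold change of -0.40, -0.71 and -0.56 for CGGBP1 in REH, 697 and RCH-ACV. Of the members, TCF7L2 had r = 0.586 with LZIC, APC 0.469, CTNNBIP1 0.330, AXIN2 0.220, CTNNB1 0.214 and AXIN1 -0.302.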

How the data were processed

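RNA-seq read counts of 18 samples, 3 per group, were analysed. According to the study's methods, the authors trimmed and filtered the reads with the FASTX Toolkit after FastQC 0.10.1, aligned them to hg19 with STAR 2.5.3a, dropped reads with more than 2 locations, and counted them with HOMER. They deposited raw counts on RefSeq transcripts, without normalization, in 1 table per cell line. The tables hold 50678 transcripts and 0 columns of other samples. Whether the counting used strand is not given in the sources used here.

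Symbols were matched through a RefSeq table for 98.0% of transcripts, which hold 99.0% of counts. Transcripts of a gene share reads, so each gene was represented by the transcript with most counts in the 18 samples. Of a gene that overlaps another, the reads cannot be divided further. Total counts lay between 7039505 and 16592565. Replicates differed by more than sampling noise, with a chi-square per degree of freedom of 1.30 to 5.18 between pairs.

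Tests were the two-sided quasi-likelihood F-test of edgeR 4.0.16 in R 4.3.3, with TMM scaling, filterByExpr by group and Benjamini-Hochberg adjustment over all genes tested. Genes with an adjusted p under 0.05 passed. Each line was fitted alone for the siRNA, the 18 samples together for the interaction with line, and the 9 controls together for differences between lines. CPM are on TMM-scaled library sizes. Lengths per kb are those of GENCODE canonical transcripts on hg19, because the tables give none, and positions and sequences come from the same build. Standard errors are the log2 fold change divided by the root of F. Counting intervals are exact at 95%. The fits were also run on simulated counts in which some genes were changed by a known amount. These changes were larger than most siRNA effects reported here. They were placed in genes with many counts, and every gene had the same spread. Small effects and genes with few counts were therefore not examined.

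The 10 members and the pathway lists were chosen with earlier results of these data known. The text names all members, the genes beside LZIC, the pathway genes past the threshold in each siRNA comparison (at most 8, by size), genes among the 3 highest per length of each list in the controls of a line, and the 5 genes with a profile most like LZIC. KREMEN1, APC2, GSK3B, VPREB1 and the myeloid markers were named after their values were seen. Alternatives were scaling by RLE or by library size only, DESeq2 1.42.0, no filter, a filter of CPM above 1 in 3 samples, a stricter adjusted p of 0.01, the replicate number as a block, another transcript per gene, and leaving out each sample. Python 3.11.15 with pandas 2.3.3, numpy 2.4.6 and scipy 1.17.1 made the tables, and matplotlib 3.10.9 drew the plots.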

Additional observations from a re-analysis of the deposited data

Results flagged for a closer look

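The effect of SOX11 siRNA on MYC, a target gene of the pathway, differed between the lines (edgeR adjusted p = 0.00489 for the interaction). MYC fell in REH, by a log2 fold change of -0.25, and had -0.08 in 697 and 0.08 in RCH-ACV, where neither passed the test. The effect on PIK3CD, which lies beside CLSTN1 near LZIC, also differed between the lines (adjusted p = 0.00352), with 0.21 in REH, -0.22 in 697 and -0.02 in RCH-ACV.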

How the results depend on the processing

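Of the pathway genes, 5 passed in REH with the siRNA, and 2 did at an adjusted p of 0.01, 8 with no filter and 3 with DESeq2. Of all genes, 591, 275, 769 and 313 passed in these fits. In RCH-ACV 8 pathway genes passed, and 5 did at an adjusted p of 0.01, where 973 and 402 of all genes did. For the interaction 1 pathway gene passed, and 3 did with no filter and 2 with the likelihood ratio test of DESeq2. Of all genes, 103, 276 and 148 did. Leaving out 1 sample gave 3 to 5 pathway genes in REH (3 without SOX11 siRNA replicate 1), 3 to 22 in RCH-ACV (22 without SOX11 siRNA replicate 3) and 1 to 2 for the interaction. Of all genes, 296 to 522 passed in REH and 386 to 2479 in RCH-ACV. The counts of pathway genes for the control samples stayed within 1.5 times. With a replicate block, 5 passed in REH, 0 in 697, 7 in RCH-ACV, where TLE4 was lost (adjusted p = 0.0538), and 1 for the interaction, and it changed no other siRNA call named here. Same-numbered samples did not deviate together (r from -0.198 to 0.209), so the numbers are not taken as pairs. The sign changed for log2 values near 0: AXIN1 with siRNA in 697 was 0.00 with library size alone and with no filter, APC in controls with library size alone was -0.07 for 697 against REH, -0.02 for RCH-ACV against REH and 0.06 for RCH-ACV against 697 (0.00 with the replicate block), and CTNNBIP1 for RCH-ACV against REH was 0.00 with RLE size factors and with DESeq2. Leaving out 1 sample also turned the sign, within -0.05 to 0.02 for CTNNB1, -0.12 to 0.01 for AXIN1 and -0.19 to 0.04 for FZD6 in REH, and within -0.03 to 0.03 for AXIN1, -0.20 to 0.01 for AXIN2, -0.17 to 0.10 for APC and -0.09 to 0.02 for CTNNBIP1 in 697. In controls the ranges were -0.12 to 0.16 for APC in 697 against REH, -0.03 to 0.02 for CTNNBIP1 in RCH-ACV against REH and -0.10 to 0.18 for APC in RCH-ACV against 697. None of these passed the main test, and the cause of the changes was not tested. By CPM without length LZIC ranked 2, 4 and 3 in the lines REH, 697 and RCH-ACV. The length of its shorter transcript, an alternative chosen after seeing the data, gave ranks 1, 2 and 2. With 3 samples a group, the depth leaves NKD1 in every line, FZD6 in 697 and RCH-ACV, and TCF7 in 697 without a siRNA test.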
